A study of Mus musculus with 6 samples.

Results

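Chemokine ligand genes were followed through the reprogramming of mouse tail-tip fibroblasts by CRISPR activation, in which a Cas9 without cutting activity brings transcriptional activators to chosen promoters. The genes were chosen by symbol alone: every gene of the count table named Cxcl or Ccl with a number, with or without a closing letter for Ccl, together with Cx3cl1 and Xcl1. That gave 38 of 49315 genes. Counts were found for 32 of them in 1 or more of the 6 libraries, and 20 passed the count filter used for testing. All cells were wild type and came from tail-tip skin. Per the labels, 2 fibroblast libraries (day 0) received negative lentiviral vectors, 2 early libraries (day 7) received CRISPR activation vectors of the SAM type, and 2 late libraries (day 22) received CRISPR activation vectors and were taken from isolated colonies called cardiac progenitors. The labels do not give the age of the animals, the guides or the number of colonies per library, and day and treatment cannot be told apart because each treatment has its own day. Early replicate 2 is labelled as partially reprogrammed and early replicate 1 as early, so both early libraries are given apart throughout.

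Chemokines are small secreted proteins that direct the movement of leukocytes and other cells through G protein-coupled receptors. CXC members with an ELR motif before the first cysteines call neutrophils through CXCR2, many CC members call monocytes, eosinophils or lymphocytes, and CXCL12 retains stem and progenitor cells and guides cells in development through CXCR4. Skin fibroblasts are a known source of several of them, and inflammatory transcription factors such as NF-kB drive many of the genes.

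The libraries held from 20172874 to 40122999 counts, and 3 counts, the floor used here for detection, were worth 0.0748 to 0.149 CPM. Levels are CPM, which are counts divided by library size, after TMM scaling, which corrects library size for differences in composition. The labelled cell type was checked with 10 fibroblast markers, of which S100a4 fell in early and in late cells (log2 fold changes -3.07 ± 0.39 and -3.75 ± 0.40, edgeR adjusted p = 0.041 and 0.038) and the other 9 did not pass the test. Of all tested genes, 0.833% and 0.779% were called lower in these comparisons. The summed level of the 10 markers was 5745 and 7606 CPM in fibroblasts, 3059 and 13022 CPM in early replicates 1 and 2, and 2841 and 3430 CPM in late replicates 1 and 2. The libraries of a group stood apart in other cell types too. The summed level of 16 macrophage markers was 346 and 1427 CPM in fibroblasts, 116 and 51.3 CPM in early and 72.1 and 297 CPM in late replicates 1 and 2, and 8 cardiomyocyte markers summed to 75.8 and 46233 CPM in late replicates 1 and 2. Since no label tells whether replicates are separate cultures or animals, each p-value reflects library-to-library spread alone, part of which may be technical. In these bulk samples, fewer cells of a type and less RNA per cell cannot be told apart.

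No chemokine ligand gene passed edgeR's quasi-likelihood test at a Benjamini-Hochberg adjusted p under 0.05 in any comparison. Against fibroblasts, 0 of 20 tested ligand genes were called in early cells, where 1.53% of all 16688 tested genes were (0.695% higher and 0.833% lower), and 0 of 20 in late cells, where 1.42% of all were (0.641% higher and 0.779% lower). Between late and early cells no gene was called (0%). At an unadjusted edgeR p under 0.05 the ligand genes numbered 10, 10 and 1 in these comparisons, beside 29.8%, 32.5% and 10.2% of all genes. DESeq2, run as an alternative, called 10 ligand genes in early cells (4 higher and 6 lower) where it called 25.2% of all genes, 9 in late cells (3 higher and 6 lower) where it called 28.1%, and 1 lower between late and early cells where it called 5.57% (4.72% higher and 0.851% lower). In early cells its calls were Cxcl1, Cxcl12, Cxcl15 and Cx3cl1 (higher) and Cxcl5, Cxcl14, Ccl3, Ccl6, Ccl7 and Ccl11 (lower). In late cells they were Cxcl1, Cxcl15 and Cx3cl1 (higher) and Cxcl5, Cxcl14, Ccl3, Ccl7, Ccl8 and Ccl11 (lower), against the same fibroblast libraries. The median log2 fold change of the 20 tested ligand genes was -0.49 in early and 0.44 in late cells against fibroblasts, beside 0.00 and 0.11 over all tested genes.

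Some ligand genes lay above both fibroblast libraries, some lay below, and the rest overlapped them. Of the 32 ligand genes with a count, 8 were higher in both early libraries than in both fibroblast libraries (22.5% of all genes with a count), 13 were lower (23.1%) and 11 overlapped. In late cells 9 were higher (28.1%), 11 lower (20.9%) and 12 overlapped, and between late and early cells 5 were higher (15.6%), 3 lower (12.1%) and 24 overlapped. All 4 CRISPR activation libraries lay above both fibroblast libraries for 7 genes (15.9% of all genes), namely Cxcl1, Cxcl12, Cxcl15, Cx3cl1, Ccl17, Ccl27a and Ccl28. They lay below for 11 genes (15% of all genes), namely Cxcl2, Cxcl3, Cxcl5, Cxcl14, Ccl3, Ccl4, Ccl6, Ccl7, Ccl8, Ccl11 and Ccl20.

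**Figure D1:**
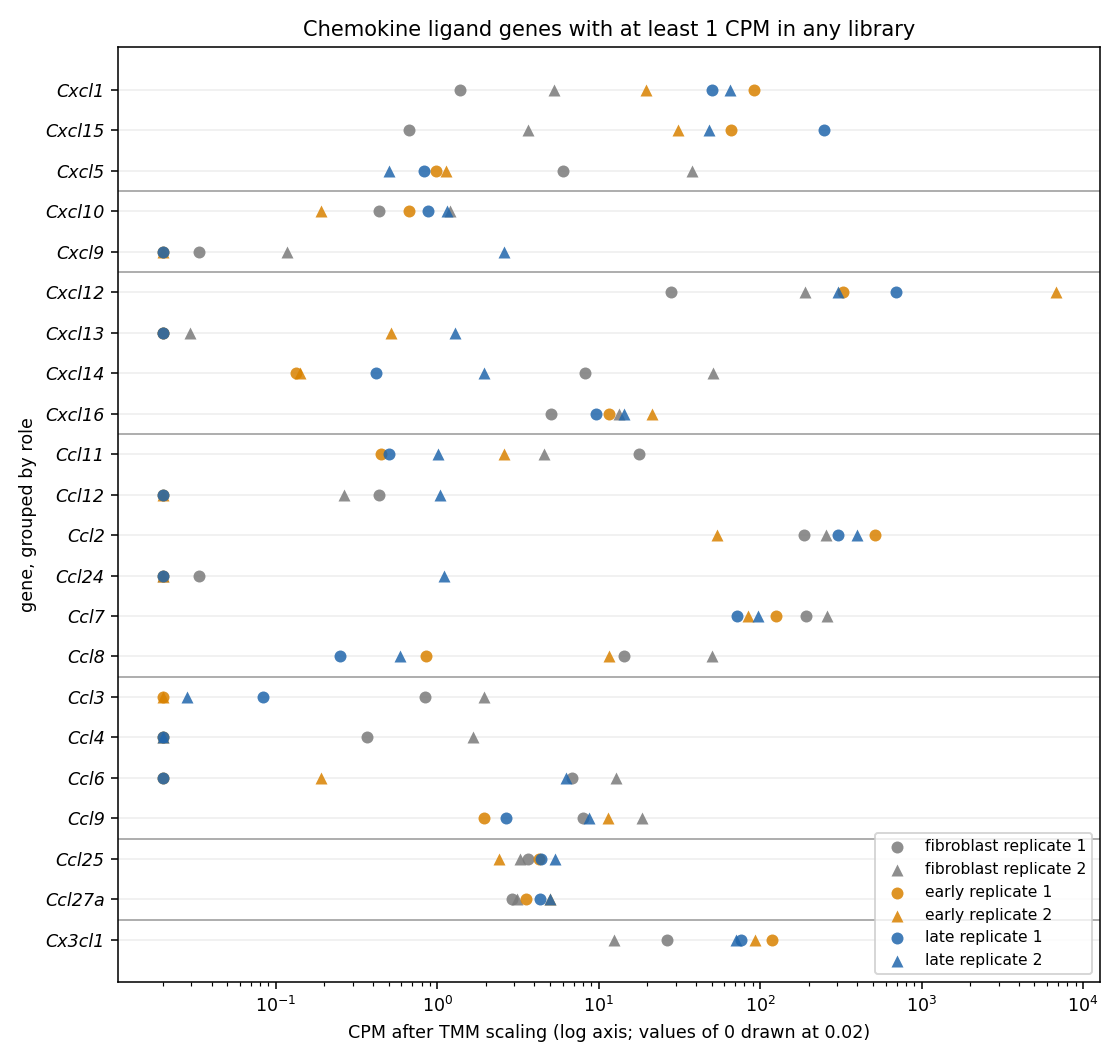
Level of the 22 chemokine ligand genes that reached 1 CPM in any library, grouped by role, with CPM on a log axis and values of 0 drawn at 0.02. Circles are replicate 1 and triangles replicate 2; grey marks fibroblasts, orange early and blue late cells, and the orange triangle of Cxcl12 at 6767 CPM lies farthest to the right.

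The ELR genes lie side by side on chromosome 5 and did not share a direction, so the promoter sequences of 4 of them are shown to let neighbours be compared. Each is the stretch before the RefSeq transcription start on GRCm38.p6, plus strand, ending at that start or, where GENCODE begins the gene earlier, before that point, and promoters of Cxcl5 and of Ccl2 were not used here. Capitals mark a match to the NF-kB consensus (in Cxcl1, Cxcl2 and Cxcl3) or the TATA box letters TATAAA (in Cxcl15 and Cxcl3). The stretches are chr5:90794284-90794533 for Cxcl15, chr5:90890995-90891240 for Cxcl1, chr5:90903649-90903870 for Cxcl2 and chr5:90785851-90786100 for Cxcl3.
Cxcl15: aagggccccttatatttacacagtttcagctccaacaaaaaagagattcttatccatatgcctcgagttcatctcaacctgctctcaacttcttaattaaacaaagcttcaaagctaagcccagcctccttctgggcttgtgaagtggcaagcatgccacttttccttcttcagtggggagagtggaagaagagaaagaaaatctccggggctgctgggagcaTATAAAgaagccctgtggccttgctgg
Cxcl1: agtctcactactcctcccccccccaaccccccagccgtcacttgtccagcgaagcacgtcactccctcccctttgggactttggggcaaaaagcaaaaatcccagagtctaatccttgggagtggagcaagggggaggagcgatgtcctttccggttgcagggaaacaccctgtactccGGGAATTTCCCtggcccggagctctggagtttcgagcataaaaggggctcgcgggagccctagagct
Cxcl2: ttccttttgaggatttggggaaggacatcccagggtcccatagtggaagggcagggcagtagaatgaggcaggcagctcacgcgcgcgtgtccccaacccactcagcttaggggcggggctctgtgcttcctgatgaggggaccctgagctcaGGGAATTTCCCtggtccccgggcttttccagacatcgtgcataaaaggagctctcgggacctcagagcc
Cxcl3: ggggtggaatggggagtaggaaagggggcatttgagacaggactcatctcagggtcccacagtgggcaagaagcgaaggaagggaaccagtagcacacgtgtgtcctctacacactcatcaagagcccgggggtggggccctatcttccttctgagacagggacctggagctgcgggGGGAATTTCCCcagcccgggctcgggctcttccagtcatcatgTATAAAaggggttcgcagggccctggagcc

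The NF-kB consensus, searched on both strands over the 250 bases before the start, was found in 7.25% of 32851 RefSeq promoters. It was found in 7 of 33 promoters of the 27 ligand genes with an entry. Some genes had several entries. For Ccl3, Ccl21b and some entries of Ccl27b, bases after the start did not match a GENCODE transcript of the gene. In Cxcl1 the match began 71 bases before the start, in Cxcl2 97 and in Cxcl3 73, each time as a pair of matches shifted by 1 base within the same run on opposite strands. No match was found in the window of Cxcl15, which had TATAAA 27 bases before the start, and Cxcl3 had TATAAA 30 bases before its start. TATAAA was present in 12.4% of all promoters. AP-1 sites (TGANTCA), interferon response elements (ISRE consensus) and GATA sites (AGATAA), searched the same way, were in 4, 3 and 5 of the 33 promoters and in 6.75%, 2.98% and 9.99% of all. The near-identical copies Ccl27a and Ccl27b both had AP-1 and GATA sites, so these counts are not of independent promoters. A match describes letters only, and no overlap between different motifs was counted.

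Among the ELR genes, Cxcl1 and Cxcl15 were at higher levels in all 4 CRISPR activation libraries, while Cxcl5 was lower and Cxcl2 and Cxcl3 were close to the detection floor. Cxcl1, a neutrophil attractant also known as KC (chr5:90891241-90893115), was at 1.38 and 5.27 CPM in fibroblasts, 91.0 CPM in early replicate 1, 19.6 CPM in early replicate 2, and 50.5 and 64.8 CPM in late replicates 1 and 2. Every CRISPR activation library exceeded both fibroblast libraries, and the early libraries enclosed the late ones. The log2 fold change was 4.05 ± 1.0 (SE, n = 2 against 2, edgeR adjusted p = 0.080) in early and 4.11 ± 1.0 (adjusted p = 0.078) in late cells. The early value was 2.56 without early replicate 1 and 5.32 without fibroblast replicate 2, and the late value lay between 3.43 and 5.37 without fibroblast replicate 1 and 2, respectively.

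Cxcl15, which encodes lungkine, a chemokine best known from lung epithelium (chr5:90794534-90803067), was at 0.671 and 3.65 CPM in fibroblasts, 66.2 CPM in early replicate 1, 30.9 CPM in early replicate 2, and 248 and 48 CPM in late replicates 1 and 2. The fibroblast libraries were the lowest and late replicate 1 the highest, with no overlap between fibroblasts and the others. edgeR gave a log2 fold change of 4.48 ± 1.2 (adjusted p = 0.088) in early and 6.09 ± 1.29 (adjusted p = 0.067) in late cells. Without fibroblast replicate 1 the early value was 3.72, without late replicate 1 the late value was 4.38, and without fibroblast replicate 2 both were larger, at 6.16 and 7.76. Between late and early cells the libraries overlapped, and the sign of the difference turned without late replicate 1 (log2 fold change 1.61 with it and -0.13 without it).

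Cxcl5, another neutrophil attractant (chr5:90759360-90761624), was at 5.98 and 37.7 CPM in fibroblasts, 0.980 CPM in early replicate 1, 1.14 CPM in early replicate 2, and 0.834 and 0.505 CPM in late replicates 1 and 2. All 4 CRISPR activation libraries lay near 1 CPM, below both fibroblast libraries, which themselves were 6.30-fold apart. The log2 fold change was -4.36 ± 1.01 (edgeR adjusted p = 0.077) in early and -5.03 ± 1.04 (adjusted p = 0.066) in late cells. With 1 library left out these ran from -5.16 to -2.50 in early and from -5.83 to -3.17 in late cells, in both cases from the value without fibroblast replicate 1 to that without fibroblast replicate 2. Cxcl2, also called MIP-2, had 8 and 20 counts in fibroblasts, 0 in both early libraries and 2 and 4 in the late ones. Its fibroblast level was at least 6.38-fold higher than the early one, taking 3 counts over the early group as the floor. Cxcl3 had 4 and 11 counts in fibroblasts and 0 or 1 in every other library.

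The 5 ELR genes spanned 90759360 to 90905938 on chromosome 5 in the order Cxcl5, Cxcl3, Cxcl15, Cxcl1, Cxcl2, all on the plus strand, with the platelet chemokine genes Ppbp and Pf4 between Cxcl5 and Cxcl3. Cxcl15 and Cxcl1, the 2 genes above the fibroblast level, lie between Cxcl3 and Cxcl2, which were below it. Ppbp, which encodes platelet basic protein, was at 3.09 and 65.5 CPM in fibroblasts and at most 0.459 CPM elsewhere. Pf4, which encodes platelet factor 4, was highest in late replicate 2 at 7.27 CPM and at most 1.41 CPM elsewhere. The predicted gene Gm43085, which begins directly after Cxcl15 on the same strand and was chosen after its values were seen, was at 0.034 and 0.529 CPM in fibroblasts, 1.96 and 1.51 CPM in early replicates 1 and 2, and 36.3 and 5.28 CPM in late replicates 1 and 2. It was highest in the library where Cxcl15 was highest, and whether some of its reads come from Cxcl15 transcripts was not tested.

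**Figure D2:**
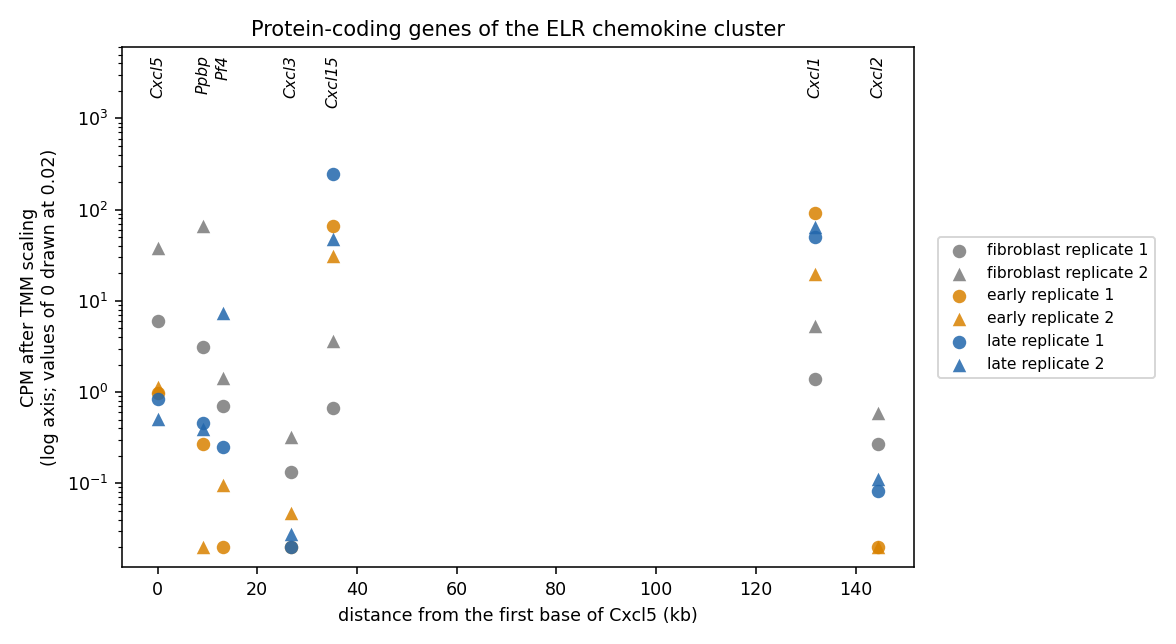
CPM on a log axis of the protein-coding genes of the ELR chemokine cluster against distance from the first base of Cxcl5 in kb, with values of 0 drawn at 0.02. Cxcl15 and Cxcl1 are at 19.6 CPM or more in all early (orange) and late (blue) libraries, whereas Cxcl5, Cxcl3 and Cxcl2 are highest in the fibroblast libraries (grey).

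Cxcl12 (chr6:117168535-117181367), the ligand of CXCR4 and of the scavenging receptor ACKR3, reached the highest CPM of all ligand genes. It was at 27.9 CPM in fibroblast replicate 1, 189 CPM in fibroblast replicate 2, 325 CPM in early replicate 1, 6767 CPM in early replicate 2, and 698 and 302 CPM in late replicates 1 and 2. All 4 CRISPR activation libraries exceeded both fibroblast libraries, but the early libraries were 20.8-fold apart and the fibroblast libraries 6.77-fold. By CPM it ranked 3 among all genes in early replicate 2 and 457 in early replicate 1. Fitted log2 fold changes were 5.03 ± 1.75 (edgeR adjusted p = 0.136) in early cells and 2.20 ± 1.54 (adjusted p = 0.355) in late cells. Leaving out 1 library moved the early value between 1.62 (without early replicate 2) and 6.98 (without fibroblast replicate 2), with edgeR adjusted p from 0.155 to 0.441. It moved the late value between 1.38 (without fibroblast replicate 1) and 4.15 (without fibroblast replicate 2).

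Cxcr4, the signalling receptor of CXCL12, was at 2.28 and 7.50 CPM in fibroblasts, 0 and 0.047 CPM in early replicates 1 and 2, and 0.917 and 5.34 CPM in late replicates 1 and 2. Ackr3, which takes up and degrades CXCL12, was at 21.7 and 48.8 CPM in fibroblasts, 29.8 and 91.8 CPM in early and 25.4 and 57.1 CPM in late replicates 1 and 2. Cxcr4 was thus lowest in the early libraries, and in each group Ackr3 was higher in replicate 2 than in replicate 1 with overlap between the groups. Neither passed the test in any comparison.

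Cxcl14, an attractant known from skin epithelium (chr13:56288643-56296551), was at 8.23 and 51.0 CPM in fibroblasts, 0.134 CPM in early replicate 1, 0.142 CPM in early replicate 2, and 0.417 and 1.94 CPM in late replicates 1 and 2. The groups did not overlap, with early cells the lowest and both early libraries close to each other at 3 counts each. The log2 fold change was -7.70 ± 1.44 (edgeR adjusted p = 0.062) in early and -4.63 ± 1.19 (adjusted p = 0.082) in late cells. Without fibroblast replicate 2 these were -5.86 and -2.81, and the farthest from 0 were -8.50 without fibroblast replicate 1 and -6.14 without late replicate 2. Cxcl16, a membrane-bound ligand of CXCR6 (chr11:70453983-70459984), was at 5.07 and 13.4 CPM in fibroblasts, 11.6 and 21.5 CPM in early and 9.67 and 14.3 CPM in late replicates 1 and 2. Its groups overlapped in every comparison, with log2 fold changes of 0.84 ± 0.60 (edgeR adjusted p = 0.395) in early and 0.38 ± 0.60 (adjusted p = 0.681) in late cells. Of its exonic length, 18.3% lies over Zmynd15 on the opposite strand, whose reads cannot be told apart without a known strand setting.

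Cxcl13, a B cell attractant, reached 0.521 CPM in early replicate 2 and 1.29 CPM in late replicate 2 and was at 0.029 CPM or 0 in the other 4 libraries. Its ratio to fibroblasts, which had 1 count, was 16.1 (exact 95% interval 2.34 to 693, counting error only) in early and 49.2 (8.41 to 1986) in late cells. In both groups all counts came from replicate 2, and these intervals leave out the spread between libraries. With that spread, edgeR gave log2 fold changes of 3.71 ± 2.78 (adjusted p = 0.415) in early and 5.06 ± 2.64 (adjusted p = 0.237) in late cells. Cxcl17 stayed at or below 0.674 CPM. Of the CXCR3 ligands, which interferon induces and which call T cells, Cxcl10 was at 0.436 and 1.21 CPM in fibroblasts, 0.668 and 0.189 CPM in early and 0.875 and 1.15 CPM in late replicates 1 and 2. Its fibroblast libraries overlapped both other groups, with log2 fold changes of -0.93 ± 0.84 (edgeR adjusted p = 0.501) in early and 0.30 ± 0.81 (adjusted p = 0.812) in late cells. Cxcl9 was at 0.034 and 0.118 CPM in fibroblasts, 0 in both early libraries, and 0 and 2.58 CPM in late replicates 1 and 2. Cxcl11, annotated as a polymorphic pseudogene, had 2 counts, both in late replicate 2. Of the exonic length, 41.7% lies over Gm2673 for Cxcl11 and 5.91% over Art3 for Cxcl10, both on the opposite strand, so these counts are uncertain too. Late replicate 2 held the highest level of Cxcl9, Cxcl13 and Cxcl17 and the only counts of Cxcl11, which were under the floor of 3. It had 40122999 counts in all, against 20172874 in late replicate 1, so genes near the floor are more readily seen in it. Late replicate 2 was also the library with the 8 endothelial markers at 740 CPM in sum, beside 27.1 CPM in late replicate 1. Marker sums of other cell types were higher there too, with the widest gap for the 8 cardiomyocyte markers, at 46233 against 75.8 CPM. The sums were 804 against 64.7 CPM for 8 keratinocyte markers, 65.3 against 11.9 CPM for 8 dendritic and Langerhans cell markers and 297 against 72.1 CPM for the 16 macrophage markers. The part of those cells in these levels was not tested.

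Among the CC genes that attract monocytes, Ccl2 and Ccl7 were the most abundant chemokine transcripts of the fibroblasts per exonic length, and they differed in course. Ccl2, the chief ligand of CCR2 (chr11:82035571-82037453), was at 188 and 254 CPM in fibroblasts, 515 CPM in early replicate 1, 53.7 CPM in early replicate 2, and 303 and 396 CPM in late replicates 1 and 2. The early libraries lay on either side of all others, 9.58-fold apart. edgeR gave a log2 fold change of 0.36 ± 0.95 (adjusted p = 0.835) in early cells, and without early replicate 1 it was -2.04. In late cells both libraries were above both fibroblast libraries, with a log2 fold change of 0.66 ± 0.96 (adjusted p = 0.650).

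Ccl7, its neighbour and also a CCR2 ligand (chr11:82045712-82047525), was at 194 and 261 CPM in fibroblasts, 125 CPM in early replicate 1, 84.2 CPM in early replicate 2, and 72.2 and 97.1 CPM in late replicates 1 and 2. All 4 CRISPR activation libraries lay below both fibroblast libraries, and the early libraries were only 1.49-fold apart. The log2 fold change was -1.12 ± 0.32 (edgeR adjusted p = 0.095) in early and -1.42 ± 0.32 (adjusted p = 0.071) in late cells.

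Ccl8, a monocyte attractant of the same cluster (chr11:82115185-82116799), was at 14.4 and 50.4 CPM in fibroblasts, 0.846 CPM in early replicate 1, 11.6 CPM in early replicate 2, and 0.250 and 0.590 CPM in late replicates 1 and 2. The groups did not overlap and late cells were the lowest, while early replicate 2 lay close to the lower fibroblast library. Fitted log2 fold changes were -2.38 ± 1.28 (edgeR adjusted p = 0.274) in early and -6.23 ± 1.56 (adjusted p = 0.079) in late cells. The early value was -5.21 without early replicate 2 and -1.21 without fibroblast replicate 2, and the late one lay between -7.00 (without late replicate 2) and -5.08 (without fibroblast replicate 2). Between late and early cells the Ccl8 log2 fold change was -3.85 ± 1.41 (edgeR adjusted p = 0.463), the single ligand gene that DESeq2 called there (adjusted p = 0.037).

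Ccl11, which encodes eotaxin, was at 17.8 and 4.56 CPM in fibroblasts, 0.445 CPM in early replicate 1, 2.60 CPM in early replicate 2, and 0.50 and 1.01 CPM in late replicates 1 and 2. It was lower in every CRISPR activation library than in either fibroblast library, with a log2 fold change of -2.88 ± 1.13 (edgeR adjusted p = 0.166) in early and -3.87 ± 1.18 (adjusted p = 0.103) in late cells. Without fibroblast replicate 1 these were -1.59 and -2.60, and the farthest from 0 were -4.60 without early replicate 2 and -4.56 without fibroblast replicate 2. Ccl12, another CCR2 ligand, was at 0.436 and 0.265 CPM in fibroblasts, 0 in both early libraries, and 0 and 1.04 CPM in late replicates 1 and 2. Ccl24, or eotaxin-2, had 39 counts (1.10 CPM) in late replicate 2 and 1 count in the other 5 libraries together. Ccl26 had no count. The cluster on chromosome 11 runs Ccl2, Ccl7, Ccl11, Ccl12, Ccl8. Of these, only Ccl2 was higher in both late libraries than in both fibroblast libraries (28.1% of all genes with a count). Of the other 4, 3 were lower in both (20.9% of all) and Ccl12 overlapped. None of them passed the edgeR test.

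**Figure D3:**
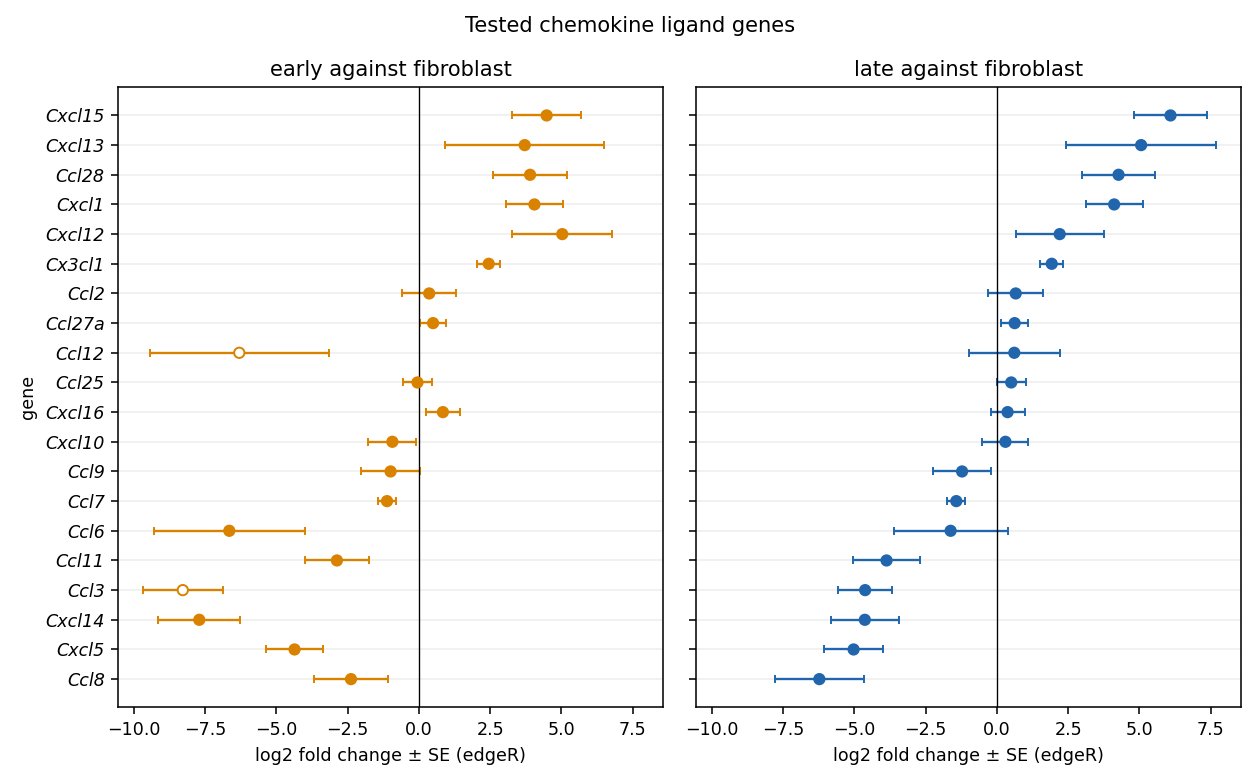
Log2 fold change with its standard error from edgeR for the 20 tested chemokine ligand genes in early (left) and late (right) cells against fibroblasts, 2 libraries a group. Open points mark genes with no count in a whole group, whose fitted value depends on the prior count and is no bound; Cx3cl1 at 2.45 and Ccl7 at -1.12 have the shortest error bars away from 0 in early cells.

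Among the CC ligands Ccl3, Ccl4, Ccl5, Ccl6 and Ccl9, the genes Ccl3, Ccl4 and Ccl6 were lower in all 4 CRISPR activation libraries than in either fibroblast library. Ccl3, which encodes MIP-1 alpha, was at 0.839 and 1.94 CPM in fibroblasts, 0 in both early libraries and 0.083 and 0.028 CPM in late replicates 1 and 2, so fibroblasts were at least 20.7-fold higher than early cells. The ratio to late cells, which had 3 counts, was 28.3 (exact 95% interval 9.40 to 140, counting error only), and edgeR gave the late difference as -4.62 ± 0.94 on the log2 scale (adjusted p = 0.074). Ccl4, or MIP-1 beta, had 11 and 57 counts in fibroblasts and none elsewhere, which made fibroblasts at least 15.5-fold higher than early and at least 21.2-fold higher than late cells.

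Ccl6, which macrophages make and which binds CCR1, was at 6.82 and 12.8 CPM in fibroblasts, 0 in early replicate 1, 0.189 CPM in early replicate 2, and 0 and 6.32 CPM in late replicates 1 and 2. It was near or at 0 in 3 of the 4 CRISPR activation libraries, and late replicate 2 was just below the fibroblasts. The log2 fold change was -6.65 ± 2.65 (edgeR adjusted p = 0.169) in early and -1.62 ± 2.0 (adjusted p = 0.592) in late cells. Ccl9, also a CCR1 ligand, was at 7.96 and 18.6 CPM in fibroblasts, 1.96 CPM in early replicate 1, 11.4 CPM in early replicate 2, and 2.67 and 8.71 CPM in late replicates 1 and 2. Its groups overlapped, with replicate 2 the higher library of each and log2 fold changes of -0.99 ± 1.03 (edgeR adjusted p = 0.559) in early and -1.22 ± 1.03 (adjusted p = 0.437) in late cells. Ccl5 stayed at or below 0.534 CPM.

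Macrophage markers were set beside these genes. Of the 16 markers, 15 were lower in both early libraries than in both fibroblast libraries (23.1% of all genes with a count), and Cd14, which fibroblasts can also carry, was higher (22.5%). Without Cd14 the markers summed to 326 and 1392 CPM in fibroblasts, 5.08 and 11.1 CPM in early replicates 1 and 2, and 5.04 and 224 CPM in late replicates 1 and 2. Leaving Cd14 out was chosen after its values were seen. Itgam and Fcgr1 had no count in either early library, and every marker was higher in late replicate 2 than in late replicate 1. edgeR called 0 of the 16 in any comparison, with 16, 1 and 7 at an unadjusted p under 0.05 in early against fibroblast, late against fibroblast and late against early cells, beside 29.8%, 32.5% and 10.2% of all tested genes. DESeq2 called 15, 2 and 5, beside 25.2%, 28.1% and 5.57% of all. In early cells 13 of the 32 ligand genes with a count were lower in both libraries than in both fibroblast libraries, as 15 of the markers were. Ccl3, Ccl4, Ccl6 and Ccl12 were among them, and so were Cxcl5, Cxcl14, Ccl7 and Ccl11. Ccl9 in early replicate 2 and Ccl5 in both early libraries were not. Between the fibroblast libraries all 16 markers were higher in replicate 2, as Ccl3, Ccl4, Ccl6 and Ccl9 were. That direction was common, with 23 of the 32 ligand genes with a count higher in replicate 2 and 5 higher in replicate 1. Ccl12 was higher in replicate 1 (0.436 and 0.265 CPM). The part of macrophages in the levels of Ccl3, Ccl4, Ccl6, Ccl9 and Ccl12 was not tested. The 10 T cell and NK markers summed to 12.6 and 2.0 CPM in fibroblasts, 0.134 and 0.0473 CPM in early and 0.0834 and 1.74 CPM in late replicates 1 and 2. The 8 neutrophil markers summed to 18.2 and 2.68 CPM in fibroblasts, 0.0445 and 0.142 CPM in early and 0.125 and 1.12 CPM in late replicates 1 and 2. Only 1 marker of each of these lists reached 1 CPM in any library. Both sums were lower in every CRISPR activation library than in either fibroblast library, as Ccl3 and Ccl4 were (15% of all genes with a count). Between the fibroblast libraries both sums were lower in replicate 2, whereas Ccl3 and Ccl4 were higher there. The part of T cells, NK cells and neutrophils in the levels of Ccl3 and Ccl4 was not tested either.

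Cx3cl1, or fractalkine, a membrane-bound chemokine that is also shed (chr8:94772009-94782427), was the ligand gene with the smallest adjusted p in early cells. It was at 26.4 and 12.5 CPM in fibroblasts, 119 CPM in early replicate 1, 93.5 CPM in early replicate 2, and 76.2 and 71.0 CPM in late replicates 1 and 2. The groups did not overlap, early cells were the highest, and the early libraries were 1.27-fold and the late libraries 1.07-fold apart. The log2 fold change was 2.45 ± 0.41 (edgeR adjusted p = 0.056) in early and 1.92 ± 0.40 (adjusted p = 0.066) in late cells. Without fibroblast replicate 1 these were 3.08 and 2.54, and without fibroblast replicate 2 they were 2.01 and 1.47. The late against early difference was -0.53 ± 0.38 (adjusted p = 0.688). Its receptor gene Cx3cr1, a marker of monocytes and microglia, took another course, at 2.22 and 5.41 CPM in fibroblasts, 0.178 and 0.047 CPM in early and 0 and 5.98 CPM in late replicates 1 and 2. The genes on either side of Cx3cl1 remained low, with Ccl22 at or below 0.112 CPM and Ccl17 at or below 0.417 CPM.

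Ligands of lymphocyte and dendritic cell homing were low or even across the libraries. Ccl25, the ligand of CCR9, was at 3.66 and 3.27 CPM in fibroblasts, 4.28 and 2.41 CPM in early and 4.42 and 5.39 CPM in late replicates 1 and 2. Ccl27a, the ligand of CCR10 known from keratinocytes, was at 2.92 and 3.12 CPM in fibroblasts, 3.56 and 4.97 CPM in early and 4.34 and 4.97 CPM in late replicates 1 and 2. For Ccl25 the early libraries lay on either side of the fibroblast ones, with a log2 fold change of -0.05 ± 0.51 (edgeR adjusted p = 0.960) in early and 0.50 ± 0.51 (adjusted p = 0.519) in late cells. For Ccl27a all 4 CRISPR activation libraries were above both fibroblast libraries, with a log2 fold change of 0.50 ± 0.46 (edgeR adjusted p = 0.514) in early and 0.62 ± 0.46 (adjusted p = 0.382) in late cells. Ccl27a and Ccl21a have near-identical copies, and exons of Ccl25 and Ccl27a touch genes on the opposite strand, so these counts are uncertain.

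The 16 ligand genes under 1 CPM in every library were Cxcl2, Cxcl3, Cxcl11, Cxcl17, Ccl1, Ccl5, Ccl17, Ccl19, Ccl20, Ccl21a, Ccl21b, Ccl22, Ccl26, Ccl27b, Ccl28 and Xcl1. Of these, 10 had a count, with a highest level of 0.674 CPM, and 6 had none: Xcl1, Ccl1, Ccl21a, Ccl21b, Ccl26 and Ccl27b. Ccl28, the only one of them that was tested, had 0 and 1 counts in fibroblasts and 11, 2, 11 and 11 in early replicates 1 and 2 and late replicates 1 and 2. Its ratio to fibroblasts was 19.0 (exact 95% interval 2.86 to 809, counting error only) in early and 23.5 (3.81 to 972) in late cells. With the spread between libraries, edgeR gave log2 fold changes of 3.90 ± 1.31 (adjusted p = 0.126) in early and 4.27 ± 1.28 (adjusted p = 0.099) in late cells.

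The early libraries were set side by side without a test, as each is a single library. Past 4-fold between the early replicates were 7 of the 20 tested ligand genes, beside 7.89% of all tested genes. Higher in early replicate 2 were Cxcl12, Cxcl13, Ccl8, Ccl9 and Ccl11, and higher in early replicate 1 were Ccl2 and Cxcl1. For comparison, 4 of 20 were past 4-fold between the fibroblast replicates (2.7% of all genes), which were Cxcl5, Cxcl12, Cxcl14 and Cxcl15, all higher in replicate 2, and 5 of 20 between the late replicates (11.7% of all genes). Of the late ones, Ccl6, Ccl12, Cxcl13 and Cxcl14 were higher in replicate 2 and Cxcl15 in replicate 1.

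Fibroblast markers also differed between the early libraries. Of the 10 markers, 8 had their highest level of all 6 libraries in early replicate 2, all but Thy1 and S100a4. The share of all genes that peak there was not computed. In early replicate 2, 7 markers were more than 4-fold above early replicate 1, beside 7.89% of all tested genes past 4-fold either way. Col3a1, a fibrillar collagen, was at 17.0 CPM in early replicate 1 and 3888 CPM in early replicate 2, and Lum, which encodes lumican, at 0 and 102 CPM. The 8 markers highest in early replicate 2 were therefore on the same side as Cxcl12 and opposite to Ccl2 and Cxcl1, and their part in the difference was not tested.

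**Figure D4:**
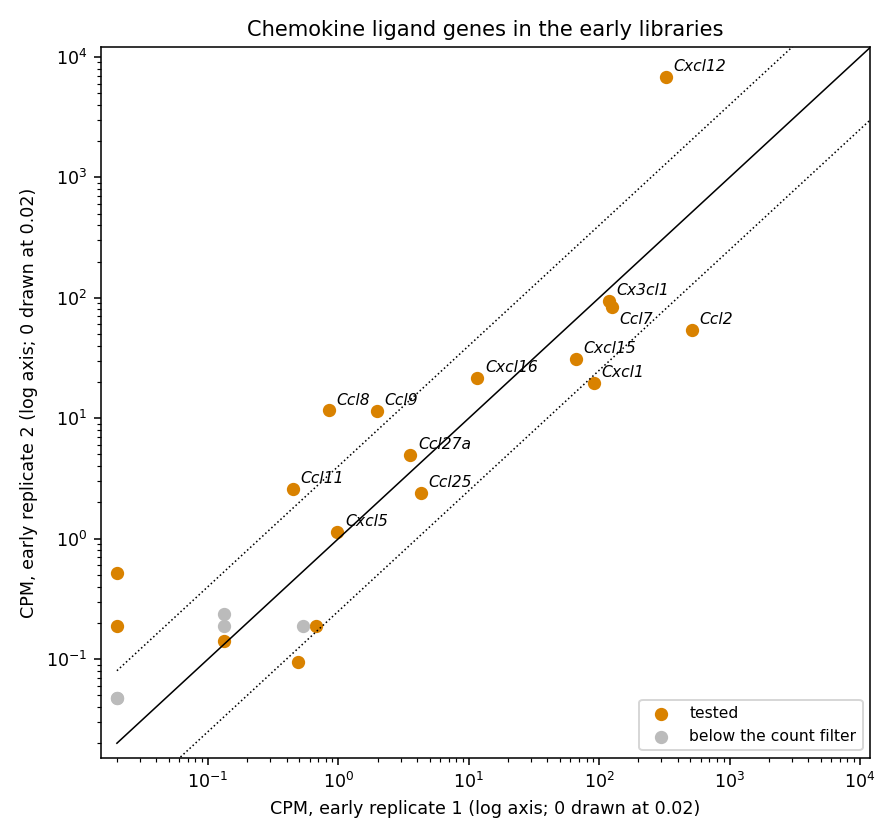
CPM of chemokine ligand genes in early replicate 2 against early replicate 1, both on log axes with 0 drawn at 0.02. The solid line marks equal levels and the dotted lines 4-fold differences; Cxcl12 lies far above (325 and 6767 CPM), Ccl2 far below (515 and 53.7 CPM), and Cx3cl1 and Ccl7 close to the solid line.

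The summed output of the 38 genes was 514 and 927 CPM in fibroblasts, 1267 CPM in early replicate 1, 7106 CPM in early replicate 2, and 1473 and 1032 CPM in late replicates 1 and 2. Cxcl12 alone made up 95.2% of the sum in early replicate 2, against 25.7% in early replicate 1, 5.44% and 20.4% in fibroblasts, and 47.4% and 29.3% in late replicates 1 and 2. Without Cxcl12 the order of the early libraries turned, with 942 CPM in replicate 1 and 339 CPM in replicate 2, and the other libraries lay between 486 and 775 CPM. Thus the sum over the other 37 genes was lowest in the early library whose total was highest.

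Per exonic length, the leading gene was Ccl7 in both fibroblast libraries (242 and 325 CPM per kb), Ccl2 in early replicate 1 (452 CPM per kb) and in late replicates 1 and 2 (266 and 348 CPM per kb), and Cxcl12 in early replicate 2 (828 CPM per kb). On that scale Ccl7 made up 50.03% and 43.0% of the summed CPM per kb in fibroblasts and 14.7% and 20.01% in late replicates 1 and 2, and the share of Ccl2 was 34.2% and 29.5% in fibroblasts and 43.3% and 57.5% in late replicates 1 and 2. These shares are descriptions of 2 libraries each, with no test.

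**Figure D5:**
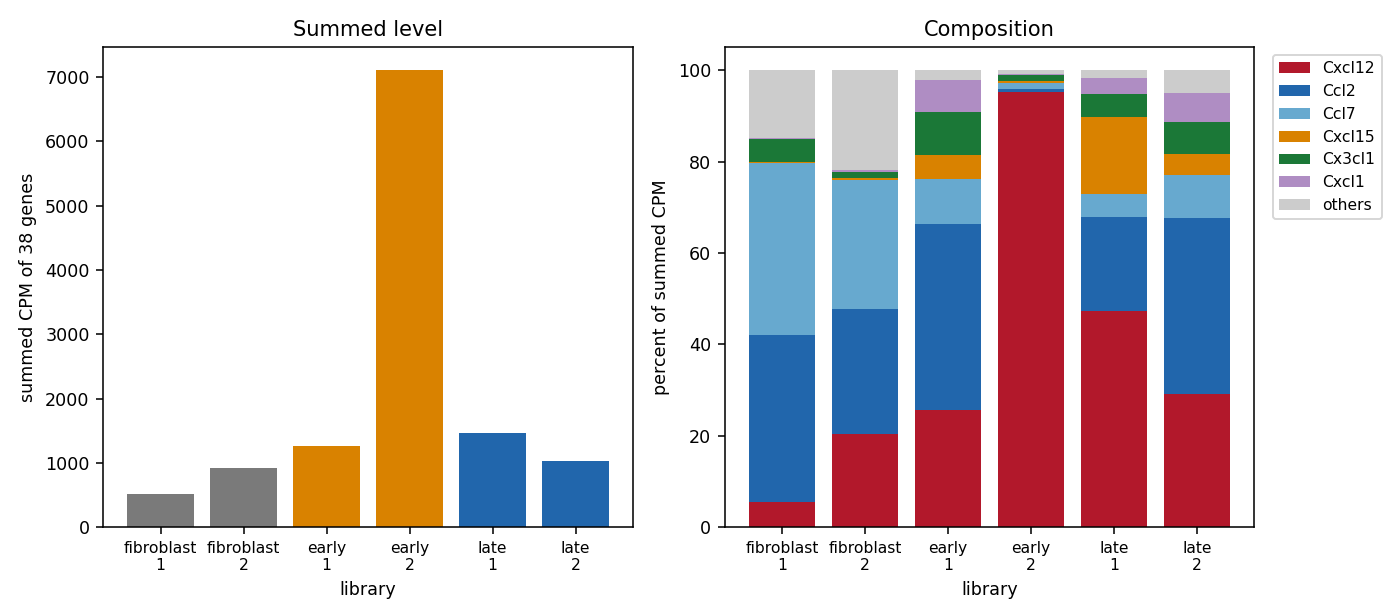
Left, summed CPM of the 38 chemokine ligand genes in each library; right, the percent of that sum from the 6 leading genes and from all others, in CPM not corrected for length. The bar of early replicate 2 reaches 7106 CPM, and 95.2% of it is Cxcl12.

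Signalling receptors of these ligands were scarce. Of 19 signalling chemokine receptor genes, 17 had a count, 7 were tested and edgeR called 0 in any comparison (1 each at an unadjusted p under 0.05, beside 29.8%, 32.5% and 10.2% of all tested genes in early against fibroblast, late against fibroblast and late against early cells, and 1 each by DESeq2, beside 25.2%, 28.1% and 5.57%). Cxcr2, the receptor of the ELR chemokines, was at 1.33 and 0.253 CPM in late replicates 1 and 2 and at most 0.029 CPM elsewhere. Ccr2, the receptor of Ccl2 and Ccl7, was at 0.618 CPM in late replicate 2 and at most 0.029 CPM elsewhere, and Cxcr3 was at or below 0.147 CPM in all libraries. The summed level of the 19 genes was 10.8 and 18.9 CPM in fibroblasts, 2.81 and 4.50 CPM in early and 5.46 and 18.1 CPM in late replicates 1 and 2. Of 5 atypical receptors, which bind chemokines without G protein signalling, 3 were tested and edgeR called 0. At an unadjusted edgeR p under 0.05 they numbered 1, 0 and 0 in early against fibroblast, late against fibroblast and late against early cells. Of all tested genes, 29.8%, 32.5% and 10.2% were under that limit. DESeq2 called 1, 1 and 0 of the 3, beside 25.2%, 28.1% and 5.57% of all. The summed level of the 5 genes, most of it Ackr3, was 29.7 and 61.5 CPM in fibroblasts, 30.2 and 92.4 CPM in early and 26.1 and 68.1 CPM in late replicates 1 and 2.

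Of 27 listed NF-kB targets and feedback inhibitors, 23 were tested and 3 rose in early and in late cells, Nfkbiz, Bcl3 and Lcn2, beside 0.695% and 0.641% of all tested genes that rose. At an unadjusted p under 0.05 they numbered 14, 11 and 2 in early against fibroblast, late against fibroblast and late against early cells (29.8%, 32.5% and 10.2% of all tested genes). DESeq2 called 14 in early (12 higher and 2 lower), 11 in late (10 higher and 1 lower) and 2 lower between late and early cells (25.2%, 28.1% and 5.57% of all). Nfkbiz, which encodes a nuclear IkB protein that induces secondary NF-kB targets, was at 10.5 and 9.53 CPM in fibroblasts, 97.1 and 121 CPM in early and 53.9 and 54.3 CPM in late replicates 1 and 2. Its groups did not overlap, and the log2 fold change was 3.45 ± 0.23 (edgeR adjusted p = 0.020) in early and 2.43 ± 0.22 (adjusted p = 0.032) in late cells. Bcl3, another nuclear IkB protein gene, was at 3.16 and 4.91 CPM in fibroblasts, 73.1 and 40.5 CPM in early and 37.9 and 45.5 CPM in late replicates 1 and 2 (log2 fold changes 3.81 ± 0.43, edgeR adjusted p = 0.037, and 3.37 ± 0.42, adjusted p = 0.047). Lcn2, which encodes the iron-siderophore binding protein lipocalin 2, rose from at most 0.940 CPM in fibroblasts to 55.5 and 94.3 CPM in early and 34.6 and 43.7 CPM in late replicates 1 and 2 (6.73 ± 0.54, edgeR adjusted p = 0.022, and 5.79 ± 0.52, adjusted p = 0.033). Without either fibroblast library, none of these calls held (adjusted p from 0.164 to 0.277), and the early calls were also lost without early replicate 1 and the late calls without late replicate 2. The median log2 fold change of the 23 tested genes was 0.80 in early and 0.82 in late cells, beside 0.00 and 0.11 over all tested genes.

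Of 22 interferon response genes, all tested, edgeR called 0 in any comparison, with 11, 6 and 4 at an unadjusted p under 0.05 in early against fibroblast, late against fibroblast and late against early cells (29.8%, 32.5% and 10.2% of all tested genes) and 9, 5 and 3 called by DESeq2 (25.2%, 28.1% and 5.57% of all). Their median log2 fold change was 1.5, 0.33 and -1.12 in these comparisons, beside 0.00, 0.11 and -0.03 over all tested genes. In early cells 15 were higher in both libraries than in both fibroblast libraries (22.5% of all genes with a count) and 2 were lower (23.1%), the latter being Ifit2 and Ifit3, which were the most abundant of the list in fibroblasts. Between late and early cells 0 were higher in both libraries (15.6% of all) and 16 were lower (12.1%). Their summed level was 467 and 639 CPM in fibroblasts, 561 and 759 CPM in early and 347 and 284 CPM in late replicates 1 and 2. Of 15 proteases and glycosaminoglycan carriers that process or hold chemokines, 14 were tested and edgeR called 0, with 5, 3 and 4 at an unadjusted p under 0.05 (29.8%, 32.5% and 10.2% of all tested genes) and 4, 3 and 2 called by DESeq2 (25.2%, 28.1% and 5.57% of all). Whether the levels of these groups bear on the ligand genes was not tested.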

How the data were processed

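Polyadenylated RNA was sequenced from 6 libraries, 2 for each of 3 groups. The authors deposited raw read counts per Ensembl gene, without normalization. The submitters' processing notes name GRCm38 as the build and Trimmomatic 0.36, STAR 2.5.2b, featureCounts and Subread 1.5.2 as tools. What was set for strand, annotation release and multimapping reads is not given in these labels and notes. Counts of near-identical copies and of overlapping genes are therefore uncertain. The fibroblast columns carry their sample titles, and the early and late columns were assigned by their abbreviations. If that reading were wrong, early and late values would change places.

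Gene symbols and coordinates were taken from GENCODE M21 (GRCm38), where 48970 identifiers had a symbol and 345 had none. Promoters came from RefSeq (GRCm38.p6). Of the listed chemokines, Ccl21c was not matched. The members, gene lists and alternatives were chosen with earlier results of these data known. Ligand genes with at least 1 CPM in any library are named with every value and the others by counts and ranges. Of each other list, called genes are named (the 4 smallest adjusted p where over 5 were called), with Cxcr4, Ackr3, Cxcr2, Ccr2, Cxcr3 and Cx3cr1. Marker values of single libraries and Gm43085 were chosen after their values were seen.

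Testing used edgeR 4.0.16 in R 4.3.3. The default expression filter kept 16688 genes. After TMM scaling, 1 robust quasi-likelihood fit with 3 group means and no block took in the 6 libraries (3 residual degrees of freedom). p-values were adjusted by Benjamini-Hochberg over all tested genes and called under 0.05. The common coefficient of biological variation came to 48.6%. The SE of a log2 fold change is its size over the root of its F value. Level differences between single libraries used a prior count of 2 for the 4-fold limit. Where a group had no counts, the fold is a lower bound that puts 3 counts into that group, and where it had 1 to 3, the ratio has an exact 95% interval. Both cover counting error only. The code was tested on simulated counts. Alternatives were DESeq2 1.42.0, its size factors in edgeR, no TMM, no filter beyond 1 count, a fit on 2 groups only, a replicate block, another prior count and leaving out each library.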

Additional observations from a re-analysis of the deposited data

How the results depend on the processing

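Counts of called genes depended on the setting more than the ligand genes' directions did. In early against fibroblast, late against fibroblast and late against early cells, edgeR called 255, 237 and 0 genes. DESeq2 called 4201, 4683 and 930, no filter beyond 1 count gave 2337, 2495 and 276, a fit on the 2 groups alone gave 1469, 1016 and 0, and total counts without TMM gave 514, 300 and 0. Leaving out 1 library gave 0 to 823, 0 to 1058 and 0 to 602, with 0 against fibroblasts without either fibroblast library and 602 between late and early cells without late replicate 1. The number tested differed between settings. In early against fibroblast cells 20 ligand genes among 16688 genes were tested in the main fit, by DESeq2 and without TMM. Without the filter it was 32 among 31952, and on the 2 groups alone 17 among 15587. Ligand genes called numbered 10, 9 and 1 by DESeq2 and 7, 6 and 0 without the filter. They numbered 3, 1 and 0 on the 2 groups alone and 2, 0 and 0 without TMM. They numbered 0 with DESeq2 size factors in edgeR and 0 to 0 when 1 library was left out. Between the early replicates, 9 ligand genes were past 4-fold with a prior count of 0.5 and 7 without TMM or without the filter.

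The labels number replicates in every group but name no shared culture or animal, and with 2 numbers the pairing check gave correlations of 0.121, 0.238 and 0.0859. With a replicate block, 26, 9 and 0 genes and 0 ligand genes were called.

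In early against fibroblast cells the sign turned for Ccl25 (from -0.05 to 0.12 without TMM and 0.0011 on the 2 groups alone). In late against fibroblast cells it turned for Ccl12 (from 0.61 to -0.24 with the replicate block). Leaving out 1 library moved the early log2 fold change of Ccl25 between -0.52 and 0.34, of Ccl2 between -2.04 and 1.26 and of Cxcl13 between -2.21 and 5.81. It moved the late value of Cxcl10 between -0.27 and 1.19 and of Cxcl16 between -0.18 and 1.22. Between late and early cells the ranges were -0.13 to 0.31 for Ccl27a, -0.13 to 2.35 for Cxcl15, -0.73 to 1.52 for Cxcl1, -3.77 to 0.58 for Cxcl12, -0.63 to 2.66 for Ccl2, -1.82 to 0.68 for Ccl11, -1.32 to 1.44 for Ccl9, -4.36 to 9.46 for Ccl6 and -0.42 to 1.94 for Ccl28. The turns came without early replicate 2 for Ccl2, Ccl9, Ccl11, Ccl28, Cxcl1 and Cxcl12, without early replicate 1 for Ccl27a, without late replicate 1 for Ccl9, Ccl28 and Cxcl15, and without late replicate 2 for Ccl6 and Cxcl1. The call of S100a4 was lost without either fibroblast library (adjusted p from 0.196 to 0.237), in early cells without either early library and in late cells without late replicate 2. The cause was not tested. With 2 libraries a group and ligand genes up to 20.8-fold apart within a group, a difference that misses the threshold here is not shown to be absent.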
